A study of Homo sapiens with 4 samples.

Results

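The nuclear lamina and the inner nuclear membrane were represented by 10 genes, picked by symbol from the 58825 gene rows of the counts. They were the lamin genes LMNA, LMNB1 and LMNB2, the lamin B receptor LBR, the LEM-domain genes EMD, TMPO and LEMD3, their DNA-binding partner BANF1, the nesprin gene SYNE3 and the torsin gene TOR1A, with positions given on GRCh38. RNA was sequenced from LoVo cells, a colorectal adenocarcinoma line that carries an uncleaved and constitutively active MET receptor. The comparison had 2 libraries of MET+ cells, labelled as wild type and as GFP control, and 2 of MET-KO cells, in which MET was disrupted with Cas9 and a guide RNA. The knockout cells were grown from manually picked single clones that were chosen by immunoblot, and whether 1 clone or several gave the MET-KO libraries is not stated. All 4 cultures were kept in the same serum-containing medium.

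The lamina is a meshwork of intermediate filament proteins that lines the nuclear membrane, carries part of the load on the nucleus and anchors peripheral chromatin. A-type lamins come from LMNA and are abundant in stiff, differentiated tissues, while B-type lamins keep a farnesyl anchor and are made in nearly all cells. LEM-domain proteins of the inner membrane hold chromatin through the small DNA-binding protein encoded by BANF1, nesprins on the outer membrane join the cytoskeleton, and torsins are ATPases of the space between the membranes. The study followed nuclear height and the perinuclear actin cap, which pulls on the lamina through nesprins and SUN proteins, so the comparison asks how the genes of the lamina itself stood in the same cells.

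The libraries held 8429142 to 10286552 counts. MET itself, on chromosome 7, had 2794 and 3272 counts in MET+ and 861 and 965 in MET-KO cells, so the targeted transcript remained at 25.7% of its mean MET+ level in CPM. Replicates resembled each other across genes (Pearson r of log2 CPM 0.985 and 0.99) more than the groups did (0.827 to 0.832). The labelled colon epithelium was checked with 11 markers, of which 10 were tested, 7 were lower in MET-KO cells and 2 higher, with a median log2 change of -0.59. EPCAM, CDH1, KRT8, KRT18, KRT19 and CDX2 had at least 525 counts in every library. Of these, EPCAM (-1.11), CDH1 (-0.88), KRT18 (-0.30) and KRT19 (-0.29) were called lower, CDX2 (1.04) was called higher and KRT8 did not pass. Other defining markers set the groups further apart. CEACAM5 had 392 and 487 counts in MET+ and 0 in both MET-KO libraries, LGALS4 had 89 and 107 against 1 and 1, VIL1 had 43 and 58 against 3 and 3, and KRT20 had 0 in both MET+ libraries against 27 and 28. CDX1 was at 0 in all 4. Of 9 genes of the Y chromosome, 8 had a count above 0 in each MET-KO library and 0 had one in either MET+ library. Markers of fibroblasts, blood and endothelium each summed to at most 4.23 CPM in any library, and the fibroblast gene COL3A1 had 4 and 5 counts in MET+ against 24 and 26 in MET-KO cells. Differences between the groups that did not come from MET, whether with the clone or otherwise, cannot be told apart from an effect of MET in this design. Whether the cells of both groups had the same origin was not tested.

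Counts came from QuantSeq libraries, which read a single fragment at the 3′ end of each polyadenylated transcript, so a level in CPM (counts per 1000000, after TMM scaling) follows the number of transcripts and is not divided by length. Where a gene ends decides what is counted. The last 30 bases of annotated transcripts (GENCODE version 29, GRCh38, written as DNA) are shown for LMNB1, LMNB2 and SYNE3, which had the largest changes, and for TOR1A, which has 1 annotated end, because the reads are taken near these ends, with the polyadenylation signal AATAAA in capitals.
LMNB1-201 (chr5:126836991-126837020, plus strand): taacaAATAAAaaagctcttttaatattga
LMNB2-201 (chr19:2428166-2428195, minus strand): tacaacactccAATAAAcattttgatttta
SYNE3-205 (chr14:95407266-95407295, minus strand): aAATAAAaatctctattttggtctatgaaa
TOR1A-201 (chr9:129812944-129812973, minus strand): taccgttttacAATAAAattttgcatgtgc
The windows shown hold these letters, but of the 4 annotated coding ends of SYNE3 the one shown is the only one whose last 30 bases hold AATAAA or ATTAAA. The 2 coding transcripts of LMNB1 reach 2 ends 17786 bases apart, both with AATAAA in the last 30 bases, and the farther one is shown. A change in the use of these LMNB1 ends would not be seen in the gene count. The 9 coding transcripts of LMNA reach 7 annotated ends spread over 2325 bases, and the 5 of TMPO reach 5 ends over 14745 bases. Lamin A and lamin C, and the isoforms of LAP2 made from TMPO, therefore enter 1 count per gene.

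Most of the group was modestly lower in MET-KO cells. All 10 genes passed the filter on low counts, which kept 13801 genes. In edgeR's quasi-likelihood fit, with Benjamini-Hochberg adjustment over those 13801 genes and a threshold of 0.05, 6 were lower (LMNB1, LBR, TMPO, LEMD3, BANF1 and SYNE3), 1 was higher (LMNB2) and 3 did not pass (LMNA, EMD and TOR1A). Over all genes tested 54.1% passed, 26.9% as lower and 27.2% as higher. The share called here was 7 of 10 (70%), and no test was made over the 10 genes as a list. Their log2 fold changes had a median of -0.29, beside 0.01 over all genes. The groups did not overlap for 9 of the 10, where 75.6% of all genes show the same. SYNE3 alone changed by more than 1 on the log2 scale. Of the genes called lower, LMNB1 lies on chromosome 5, TMPO and LEMD3 on chromosome 12 and SYNE3 on chromosome 14. The other tested genes of these chromosomes had median log2 changes of -0.43, -0.31 and -0.51. With libraries scaled by their totals alone, 2 of the 10 genes were called lower. In bulk RNA a lower level per cell and fewer cells with the transcript cannot be told apart.

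**Figure D1:**
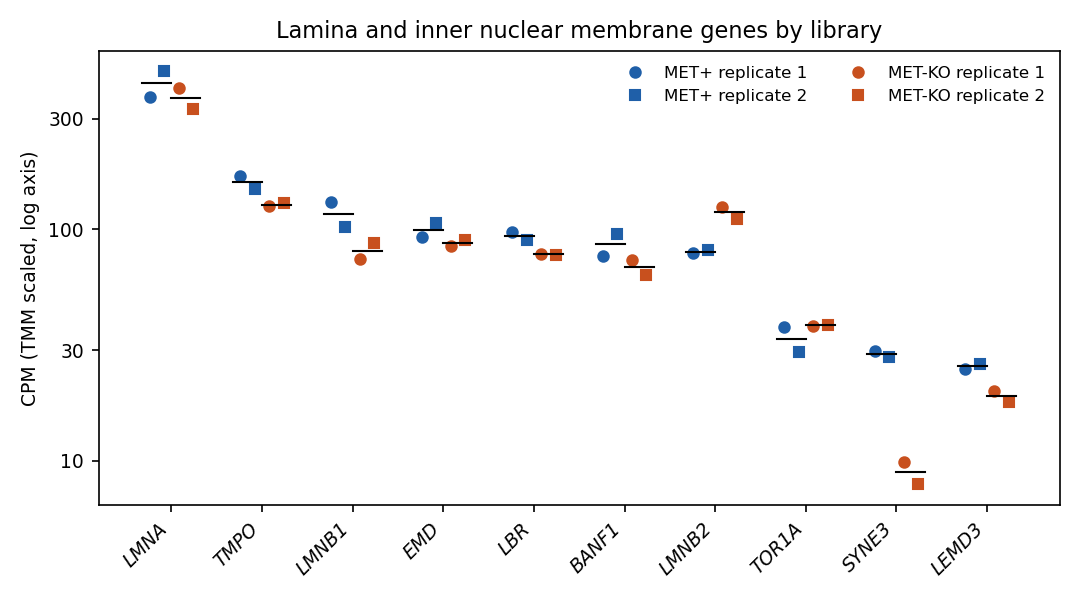
Level of each gene in every library, in CPM after TMM scaling on a log axis, ordered by the MET+ mean. Circles and squares are replicates 1 and 2, and the short lines are group means. SYNE3 lies at 28.0 and 29.8 CPM in MET+ and at 7.91 and 9.89 CPM in MET-KO cells, LMNB2 lies higher in both MET-KO libraries, and for LMNA the groups overlap.

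The B-type lamins changed in opposite directions. LMNB2 (ENSG00000176619, chromosome 19, 2427638 to 2456996) had 78.9 and 81.2 CPM in the MET+ libraries and 125.2 and 111 CPM in the MET-KO libraries. Its groups lay apart, with means of 80.02 ± 1.597 and 118 ± 9.94 CPM (SD, n = 2 each), 1.48-fold higher in MET-KO cells. On the log2 scale the change was 0.56 with an SE of 0.10 (edgeR adjusted p = 1.44e-05). LMNB1 (ENSG00000113368, chromosome 5, 126776623 to 126837020), the B-type lamin known to be lost in senescent cells, had 130.6 and 102.8 CPM in MET+ and 74.7 and 87.0 CPM in MET-KO cells. Both MET-KO libraries were below both MET+ libraries, although the replicates of each group were less even than for LMNB2. The log2 change was -0.53 with an SE of 0.11 (edgeR adjusted p = 0.000127), and MET-KO cells held 69.3% of the MET+ mean. LMNB1 ranked 3 and LMNB2 ranked 7 by mean level among the 10 genes in MET+ cells, against 5 and 3 in MET-KO cells, although the ranges of ranks 3 to 7 overlapped from neighbour to neighbour in MET+ cells.

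The summed B-type level did not differ beyond its spread. LMNB1 and LMNB2 together had 209.5 and 184 CPM in MET+ and 199.9 and 198 CPM in MET-KO cells, with means of 197 ± 18.1 and 199 ± 1.25 CPM (SD, n = 2 each). The MET-KO values lay between the MET+ values, so no difference was detectable at this spread. The ratio of LMNB2 to LMNB1 counts, which does not depend on how libraries are scaled, was 0.604 and 0.79 in MET+ and 1.68 and 1.28 in MET-KO cells. LMNB1 was thus the more counted B-type transcript in both MET+ libraries and LMNB2 in both MET-KO libraries. The mean log2 ratio differed by 1.08, or 2.12-fold, and exceeded the spread within groups (SD 0.27 and 0.28). Permuting the group labels, an exact two-sided test, gave p = 0.333, the smallest that 2 libraries against 2 allow. This ratio was chosen after the values were seen. It is free of library scaling but not of shifts of whole chromosomes. The other tested genes of chromosome 5, which carries LMNB1, had a median log2 change of -0.43. Those of chromosome 19, which carries LMNB2, had a median of 0.01. The part of this gap in the ratio was not tested.

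LMNA (ENSG00000160789, chromosome 1, 156082573 to 156140089) was the highest of the 10 genes in both groups, with 374 and 481 CPM in MET+ and 408 and 332 CPM in MET-KO cells. Its groups overlapped. The log2 change was -0.21 (95% interval -0.42 to 0.01, edgeR adjusted p = 0.0942), so a fall of up to 0.42 on the log2 scale is within its error. The A-type to B-type ratio, LMNA over the sum of LMNB1 and LMNB2, was 1.79 and 2.62 in MET+ and 2.04 and 1.68 in MET-KO cells. The groups overlapped, and the difference in mean log2 ratio, -0.22, was below the spread within MET+ cells (SD 0.39; exact two-sided permutation test, p = 0.667, where 0.333 is the smallest p possible). The result turned on which B-type gene stood below. Against LMNB2 alone, LMNA counted 4.75 and 5.93 to 1 in MET+ and 3.26 and 2.99 to 1 in MET-KO cells, groups that do not overlap (log2 difference -0.76, exact permutation p = 0.333). Against LMNB1 alone, the ratio was 2.87 and 4.68 in MET+ and 5.46 and 3.82 in MET-KO cells, groups that overlap with a log2 difference of 0.32 (exact permutation p = 0.667). As shares of all lamin counts in a library, LMNA held 62.7% to 72.3% and LMNB2 held 12.2% to 13.5% in MET+ and 20.6% to 21.0% in MET-KO cells. For LMNB2 the 95% binomial intervals (Clopper-Pearson) reached at most 14.5% in MET+ and began at 19.6% in MET-KO cells, and cover counting error only.

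**Figure D2:**
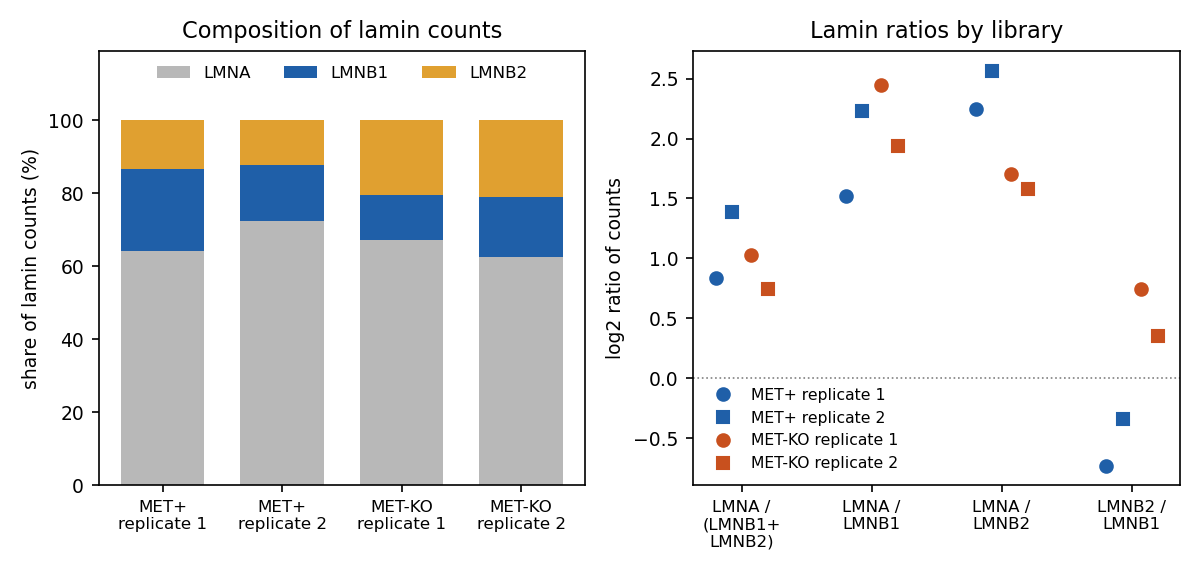
Left, share of LMNA, LMNB1 and LMNB2 in the lamin counts of each library, in percent. Right, log2 ratios of counts in each library, with circles and squares for replicates 1 and 2. The LMNB2 to LMNB1 ratio lies below 0 in both MET+ and above 0 in both MET-KO libraries, while the LMNA to summed B-type ratio overlaps between the groups.

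LMNB2 has a close neighbour. An annotated transcript of LMNB2 shares 257 exonic bases with TIMM13 on the same strand, and the end of the coding transcript shown above lies 271 bases outside TIMM13. TIMM13 had 235 and 283 CPM in MET+ and 245 and 187 CPM in MET-KO cells, with overlapping groups and a log2 change of -0.26 (edgeR adjusted p = 0.0363), the direction opposite to LMNB2. How reads in the shared bases were assigned is not given in the sources used here.

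Promoters of 9 of the 10 genes were matched in RefSeq (GRCh38.p14), from 250 bases before to 50 after the annotated start, and TOR1A had no entry. Only 1 start per gene was searched, so other starts of a gene, including LMNA, are not covered. They were searched on both strands for GGAATG, the core word of TEAD factors, for the E2F words TTTCCCGC and TTTGGCGC, for CCAAT, for the cell cycle word TTTGAA and for the GC box GGGCGG. The promoters of the lamin genes and of SYNE3 are shown because these genes hold the contrasts described here, and capitals mark the matches. In LMNA the E2F word and the GC box overlap, so that their capitals form 1 run.
LMNA (chr1:156082323-156082622, plus strand): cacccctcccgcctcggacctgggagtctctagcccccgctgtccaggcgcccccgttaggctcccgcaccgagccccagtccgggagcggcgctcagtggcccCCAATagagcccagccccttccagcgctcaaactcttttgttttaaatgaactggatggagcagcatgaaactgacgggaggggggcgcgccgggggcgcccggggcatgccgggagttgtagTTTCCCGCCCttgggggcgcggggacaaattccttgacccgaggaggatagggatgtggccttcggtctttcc
LMNB1 (chr5:126776373-126776672, plus strand): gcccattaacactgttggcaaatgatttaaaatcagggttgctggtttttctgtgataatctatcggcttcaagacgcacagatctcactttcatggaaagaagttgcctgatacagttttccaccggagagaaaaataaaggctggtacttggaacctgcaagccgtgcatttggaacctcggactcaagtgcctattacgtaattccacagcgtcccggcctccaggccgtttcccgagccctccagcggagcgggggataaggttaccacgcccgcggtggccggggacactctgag
LMNB2 (chr19:2456910-2457209, minus strand): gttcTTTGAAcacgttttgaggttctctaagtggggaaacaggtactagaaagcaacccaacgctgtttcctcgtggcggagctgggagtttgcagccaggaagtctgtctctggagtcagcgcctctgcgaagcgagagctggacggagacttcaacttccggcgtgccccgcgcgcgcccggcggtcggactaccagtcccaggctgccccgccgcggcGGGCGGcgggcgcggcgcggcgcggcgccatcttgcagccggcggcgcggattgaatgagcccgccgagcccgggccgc
SYNE3 (chr14:95516601-95516900, minus strand): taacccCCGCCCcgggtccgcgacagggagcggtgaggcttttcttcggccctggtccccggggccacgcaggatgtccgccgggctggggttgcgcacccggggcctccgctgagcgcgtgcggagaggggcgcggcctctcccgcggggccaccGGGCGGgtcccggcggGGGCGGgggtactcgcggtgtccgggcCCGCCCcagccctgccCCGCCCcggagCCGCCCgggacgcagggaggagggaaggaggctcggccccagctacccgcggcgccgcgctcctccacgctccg
The window of LMNB1 holds 0 of these words and is 52.0% G and C, while that of LMNB2 holds a TTTGAA and a GC box and is 67.7% G and C. SYNE3 has 6 GC boxes and is 80.3% G and C, in a window at a RefSeq start that lies outside the GENCODE gene whose coordinates are given here. The window of BANF1 also does not hold the outer GENCODE start. Among the 9 windows GGAATG occurs in BANF1 alone, against 14.0% of 27305 promoters of the same length. The E2F words occur in LMNA and LEMD3 (2.31% of all), CCAAT in LMNA, EMD, TMPO and LEMD3 (35.7%), TTTGAA in LMNB2 (15.4%) and GGGCGG in 6 of the 9 (44.6%). A match is a description of the letters and not a site.

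SYNE3 (ENSG00000176438, chromosome 14, 95407266 to 95475836) had the largest change of the group. The gene encodes nesprin 3, which sits in the outer nuclear membrane and binds plectin, a linker to intermediate filaments. It had 247 and 273 counts in MET+ and 101 and 86 in MET-KO cells, or 29.8 and 28.0 CPM against 9.89 and 7.91 CPM. The groups lay far apart, and MET-KO cells held 30.8% of the MET+ mean. On the log2 scale it fell by 1.70 with an SE of 0.17 (edgeR adjusted p = 3.31e-10), and 87.1% of all genes tested changed by less. Chromosome 14 as a whole stood lower, its 478 other tested genes having a median log2 change of -0.51. Within 5 Mb of SYNE3, 37 of 55 tested genes were called lower and 3 higher, with a median of -0.65. SYNE3 lay 1.05 below that local median and at percentile 8.16 of its chromosome. Its 4 coding transcripts reach 4 ends spread over 36395 bases, so a change in the use of these ends would not be seen in the gene count.

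TMPO, LEMD3 and BANF1 were lower by smaller amounts. TMPO (ENSG00000120802, chromosome 12, 98515512 to 98550379), which makes the lamina-associated polypeptides LAP2, had 170 and 149 CPM in MET+ and 126 and 129.5 CPM in MET-KO cells. All MET-KO values were below all MET+ values, with a log2 change of -0.32 and an SE of 0.10 (edgeR adjusted p = 0.005). LEMD3 (ENSG00000174106, chromosome 12, 65169571 to 65248327), which encodes MAN1, an inner membrane protein that binds SMAD factors, had 24.9 and 26.2 CPM against 19.97 and 18.0 CPM, a log2 change of -0.43 with an SE of 0.15 (edgeR adjusted p = 0.0162). It was the least counted gene in MET+ cells, with 206 and 256 counts. BANF1 (ENSG00000175334, chromosome 11, 66002079 to 66004149) encodes the barrier-to-autointegration factor that bridges DNA and LEM domains, and had 76.7 and 95.2 CPM against 73.7 and 63.5 CPM. Its groups were separated by a narrow gap, and the log2 change was -0.33 with an SE of 0.11 (edgeR adjusted p = 0.013). EMD (ENSG00000102119, chromosome X, 154379197 to 154381523) encodes emerin, which also caps actin filaments, and had 92.3 and 106 CPM against 85.0 and 89.9 CPM. Its MET-KO libraries were lower than both MET+ libraries, but the log2 fold change of -0.19 did not pass the test (95% interval -0.39 to 0.02, adjusted p = 0.124, edgeR).

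LBR (ENSG00000143815, chromosome 1, 225401502 to 225428925) tethers heterochromatin and B-type lamins at the inner membrane and is also a sterol reductase. It had 97.5 and 89.7 CPM in MET+ and 78.4 and 77.6 CPM in MET-KO cells, with groups that do not overlap. The log2 change was -0.26 with an SE of 0.10 (edgeR adjusted p = 0.0277), the smallest among the 7 calls, and it lost its call in 7 of the 11 alternative settings. TOR1A (ENSG00000136827, chromosome 9, 129812944 to 129824134) encodes torsin 1A and had 37.8 and 29.6 CPM in MET+ against 38.4 and 38.6 CPM in MET-KO cells. The MET-KO values lay just above the higher MET+ value. Its log2 fold change of 0.20 did not pass (95% interval -0.07 to 0.46, adjusted p = 0.204, edgeR). The 7 annotated processed pseudogenes of TMPO and BANF1 had at most 1 count in any library. TMPO shares 713 exonic bases with the antisense gene TMPO-AS1 and BANF1 shares 98 with EIF1AD on the other strand, and without a stated strand setting such reads cannot be told apart.

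**Figure D3:**
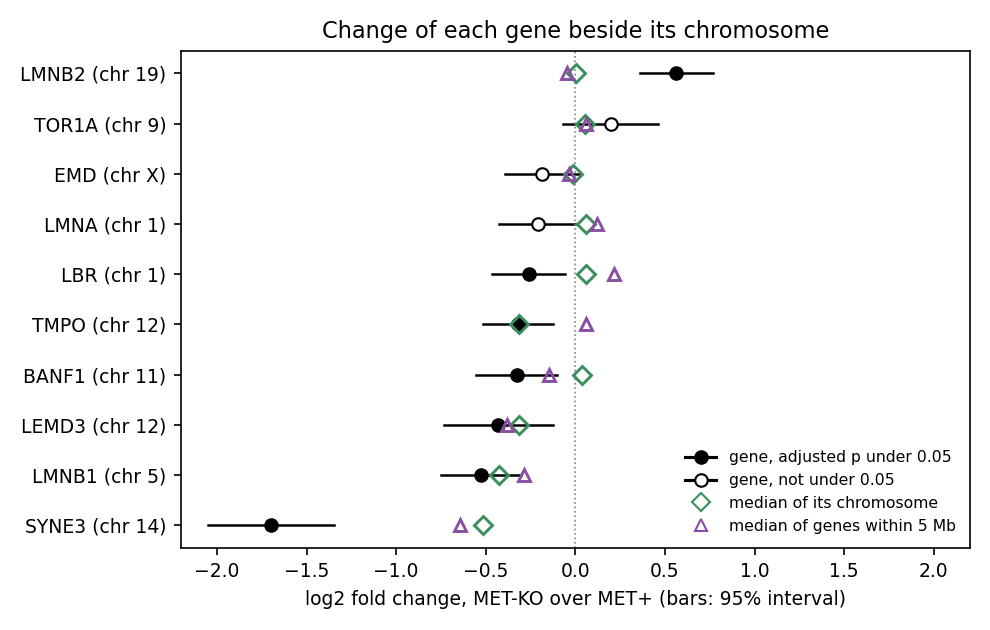
Log2 fold change of each gene between MET-KO and MET+ cells, with its 95% interval from edgeR, beside the median of the other tested genes of its chromosome (diamonds) and of those within 5 Mb (triangles). Filled circles have an adjusted p under 0.05. LMNB2 and TOR1A lie above both medians and the other 8 genes below both, with SYNE3 farthest from its own.

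Several chromosomes were shifted between the groups. LMNB1 lies on chromosome 5, whose other 616 tested genes had a median of -0.43, so LMNB1 was 0.10 lower than its chromosome and 0.24 lower than the 24 tested genes within 5 Mb. TMPO and LEMD3 lie on chromosome 12, with a median of -0.31. TMPO differed from it by 0.01 and LEMD3 by 0.11, but within 5 Mb TMPO lay 0.38 below a median of 0.06 and LEMD3 0.05 below a median of -0.38. LMNB2 stood 0.56 above the median of chromosome 19 and 0.61 above its 161 neighbours within 5 Mb. LBR and LMNA, on chromosome 1, were 0.32 and 0.27 below a chromosome median of 0.06. BANF1 was 0.37 below chromosome 11, 0.18 below its neighbours. Of the 10 genes, 8 lay below the medians of chromosome and of neighbourhood, where a median by definition has as many genes below it as above. For TMPO, LEMD3 and LMNB1 the gap to the chromosome median was smaller than the SE of the gene (0.10, 0.15 and 0.11). The part of the chromosome shifts in the single-gene values was not tested.

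More markers of dividing cells were called lower than higher, and the paper reports slower proliferation of the MET-KO cells. A list of 20 proliferation genes summed to 2751 and 2796 CPM in MET+ and 2394 and 2445 CPM in MET-KO cells. At the same threshold 9 were lower, 2 higher and 9 did not pass, with a median log2 change of -0.23, where 26.9% of all genes were lower and 27.2% higher. MKI67, which marks cycling cells, fell from 290.7 to 163.9 CPM (log2 change -0.83, edgeR adjusted p = 3.09e-09), while the replication gene MCM2 rose from 89.3 to 127 CPM (0.52, adjusted p = 7.01e-05). Their part in the values of LMNB1 and TMPO was not tested.

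The genes around the lamina were taken from lists by role. Their counts stand beside 26.9% of all genes called lower and 27.2% called higher, and no list was tested as a whole. Of 5 enzymes that mature farnesylated lamins, 3 were lower and 0 higher. FNTB, the catalytic subunit of farnesyltransferase, fell from 25.7 ± 1.71 to 9.89 ± 0.97 CPM (SD, n = 2 each; log2 change -1.37, edgeR adjusted p = 2.81e-08). It lies on the lower chromosome 14 and shares 1661 exonic bases with the readthrough gene CHURC1-FNTB. FNTA, its partner subunit, was the highest of the 5 at 0.20 and did not pass. The protease ZMPSTE24, which cleaves prelamin A, and the methyltransferase ICMT had log2 fold changes of -0.41 and -0.33 and were called lower. Of 12 genes acting on BAF and on the resealing of the envelope, 11 were tested, and 6 were lower and 0 higher, with a median of -0.41. LPIN1, a phosphatidate phosphatase, fell from 104.5 to 46.8 CPM (log2 change -1.16, edgeR adjusted p = 3.05e-11), and VRK1, the kinase that releases BAF from DNA, had a log2 fold change of -0.65 and also lies on chromosome 14. SPAST was the highest of the list at 0.36 and did not pass (adjusted p = 0.0581, edgeR).

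The torsin group and the other inner membrane genes were split. Of 6 torsins and cofactors, TOR1AIP2, which encodes the torsin activator LULL1, rose from 81.4 ± 3.74 to 145.8 ± 4.73 CPM (SD, n = 2 each; log2 change 0.84, edgeR adjusted p = 5.49e-09). TOR4A fell from 92.5 to 46.8 CPM (log2 change -0.99, edgeR adjusted p = 3.55e-09), and the other 4 did not pass. Of 7 further inner membrane genes, 3 were higher and 3 lower. TMEM43, which encodes LUMA, a partner of emerin and lamins, rose from 48.8 ± 9.78 to 103 ± 1.97 CPM (SD, n = 2 each; log2 change 1.09, edgeR adjusted p = 7.04e-10), and NEMP1 was the lowest at -0.79. Of 4 other LEM-domain genes, 2 were tested. ANKLE2, which helps BAF return to chromatin after mitosis, was lower (-0.54, adjusted p = 0.000137, edgeR), and LEMD2 had -0.07 and did not pass. Among the 5 LINC genes, SUN2 (1.10) and SUN1 (0.49) were higher and SYNE2 (-1.33) lower, and SYNE1 and SYNE4 were too low to test, at 0 to 21 counts. SYNE2 lies on chromosome 14, like SYNE3, and SUN1 lies on chromosome 7, whose tested genes had a median log2 change of 0.50. ANKLE2 and NEMP1 lie on chromosome 12, where all tested genes together had a median of -0.32. SUN2 shares exonic bases with DNAL4 and SUN1 with GET4 on the same strand. TMEM43 likewise shares 462 exonic bases with another annotated protein-coding gene on its strand.

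Nuclear pore genes, the other large fixture of the envelope, gave calls in both directions. All 30 listed were tested, 10 were lower, 4 higher and 16 did not pass, where 54.1% of all genes passed, so these calls do not set the nuclear pore genes apart. Their median log2 change was -0.06. NUP88 was the lowest, from 54.7 to 26.3 CPM (-1.06, adjusted p = 3.95e-09, edgeR), and overlaps RABEP1 and RPAIN on the other strand. NUP210 was the highest, from 40.3 to 56.9 CPM (0.50, adjusted p = 0.000431, edgeR).

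**Figure D4:**
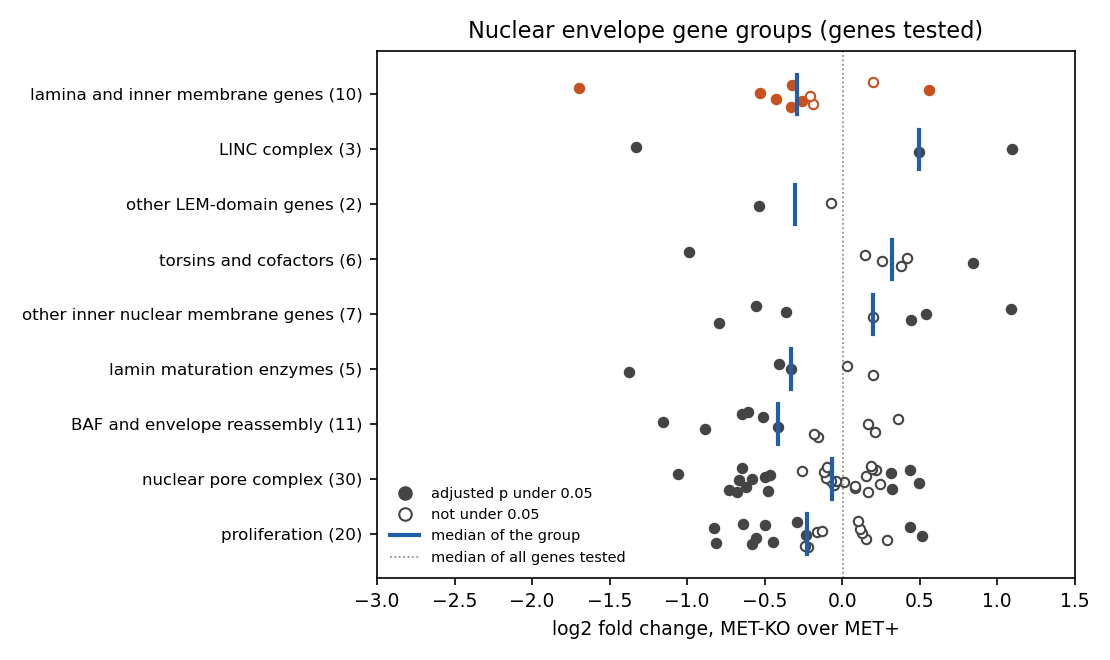
Log2 fold changes between MET-KO and MET+ cells of the tested genes in each group, with the number tested in brackets. Filled points have an adjusted p under 0.05, bars are group medians and the dotted line is the median of all genes tested. The lamina and inner membrane genes have a median of -0.29, the genes of BAF and envelope reassembly -0.41 and the nuclear pore genes -0.06.

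The smaller calls depended on the scaling and on single libraries. LMNB1, LMNB2 and SYNE3 passed in each of the 11 alternative settings that were run for single genes, with log2 fold changes of -0.70 to -0.34, 0.47 to 0.66 and -1.87 to -1.54. None of the 11 settings adjusted for shifts of whole chromosomes, and LMNB1 lay 0.10 below the median of chromosome 5. With libraries scaled by their totals alone, which raised the median of all genes to 0.11, LMNB1 and SYNE3 were the 2 genes called lower. DESeq2's Wald test called 3 lower, these and TMPO, as did edgeR without the second MET-KO library. LBR lost its call without the first MET+ library or either MET-KO library (log2 changes -0.20, -0.27 and -0.25), and TMPO without the first MET+ library (-0.22). LEMD3 and BANF1 lost theirs without the second MET+ library (-0.40 and -0.17) or the second MET-KO library (-0.35 and -0.22). LMNA, whose log2 change ranged from -0.38 to -0.02, passed only when the first MET+ library (log2 fold change -0.38) or the first MET-KO library (-0.37) was left out, and TOR1A only without the first MET+ library (0.38).

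**Figure D5:**
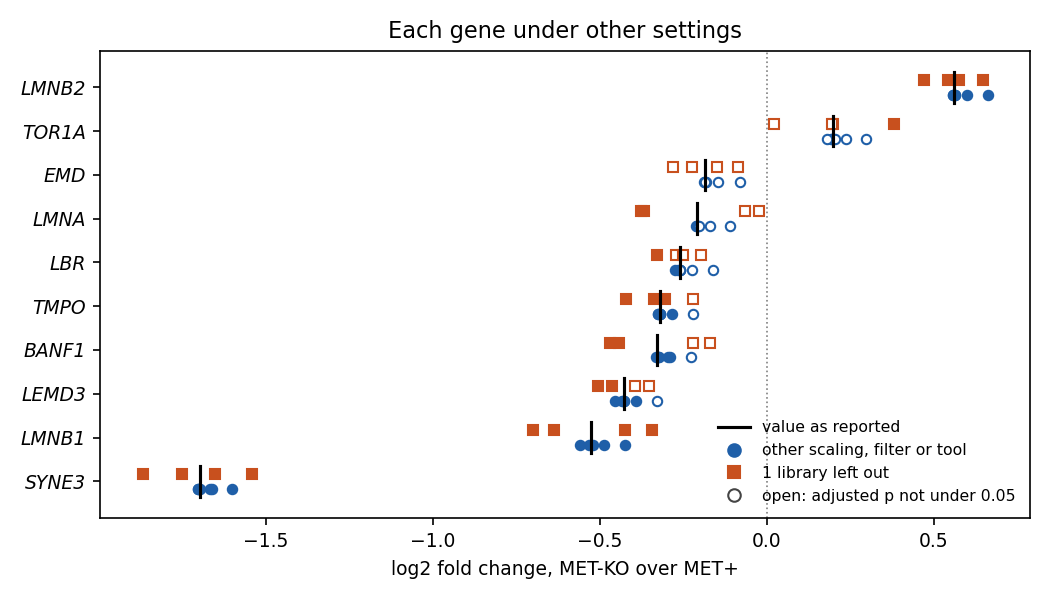
Log2 fold change of each gene under 11 other settings, with other scalings, filters and tools as circles and fits without 1 library as squares. Open symbols have an adjusted p that is not under 0.05, and the bar is the value as reported. The symbols of LMNB1, LMNB2 and SYNE3 are all filled, those of EMD are all open, and those of LBR, TMPO, LEMD3 and BANF1 are mixed.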

How the data were processed

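Total RNA of LoVo cells was sequenced as QuantSeq 3′ libraries (FWD kit). Per the labels, the submitters' processing notes name cutadapt 1.16, STAR 2.5.4a, featureCounts 1.6.2 and DESeq2 1.18.1 on GRCh38. The authors deposited raw counts per gene, 1 file per library, for 58825 Ensembl genes and 99 spike-in rows that were all at 0. The annotation release and strand setting are not given in the sources used here. Names and coordinates came from GENCODE version 29, which held 58552 of the IDs.

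Starting from these counts, genes were filtered with filterByExpr by group, scaled by TMM (factors 0.949 to 1.06) and tested with edgeR 4.0.16 (R 4.3.3) by the quasi-likelihood test, with condition as the only term and Benjamini-Hochberg adjustment over 13801 genes. The threshold was an adjusted p of 0.05. Intervals of 95% used the test's standard error. The fit was tested on simulated data in which few genes changed. That setting differs from these data, where 54.1% of genes were called, so it gives no error rate for them. The labels call the replicates biological, and they differed by more than counting noise (chi-square per degree of freedom 5.45 and 4.86). Without molecular identifiers, counting intervals ignore PCR copies. Alternatives were DESeq2 size factors, library totals, no filter, a minimum of 10 counts per library, DESeq2 1.42.0, the replicate block, thinning, leaving out each library and a log2 change of 1 or more in size. The members and lists were chosen with earlier results of these data known. Named genes are the 10 members, MET, and in each list the genes past the threshold with a log2 change of 1 or more in size and the highest and lowest; other genes, such as TIMM13 and most markers, were named after their values were seen. The end sequence of LMNA is not reported here. Figures used matplotlib 3.10.9.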

Additional observations from a re-analysis of the deposited data

How the results depend on the processing

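Of 110 single-gene values under alternative settings, 90 kept their side of the threshold, 17 lost it, 3 gained it and 0 changed direction. The number of genes called lower went from 6 to 2 with library totals alone and to 3 with DESeq2's Wald test, and leaving out each library gave 3 to 6, the 3 without MET-KO replicate 2. The number called higher was 1, and 1 to 2 when each library was left out, the 2 without MET+ replicate 1. Requiring a log2 change of 1 or more in size left 1 lower (SYNE3) and 0 higher, and 3355 of 7467 genes in all. The causes of the other changes were not tested.

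The A-type to B-type log2 ratio, -0.22, was 0.32 with LMNB1 alone and -0.76 with LMNB2 alone below the line, and -0.50 to 0.05 without each library, above 0 without MET+ replicate 2, so its sign rests on that library. The LMNB2 to LMNB1 log2 ratio, added after seeing the data, was 0.89 to 1.28 without each library.

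Same-numbered libraries did not deviate together (correlation of deviations -0.02), so the numbers were not taken as pairs. With the replicate block, 7055 genes were called in place of 7467, 5 of the 10 genes were called lower, LBR losing its call (adjusted p = 0.0632, edgeR), and 1 higher. With 2 libraries per group, changes as small as those of LMNA, EMD and TOR1A are not resolved at this spread.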

Other observations

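From replicate 1 to replicate 2, log2 CPM of LMNA differed by 0.36 in MET+ and by -0.30 in MET-KO cells, while LMNB1 differed by -0.35 and 0.22 and BANF1 by 0.31 and -0.21. In each group the library with more LMNA also had more BANF1 and less LMNB1. The gap between replicates of LMNA exceeds the difference between the groups, -0.21. For 7 of the 10 genes the gap had opposite signs in the 2 groups, and replicate numbers carry no order. These values were noticed after the data were seen and were not tested.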
